A study of Drosophila melanogaster with 2 samples.

Results

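The 1317 regions described here are binding summits of a GFP-tagged Capicua protein that lie at divergent promoters, where 2 protein-coding genes start close together and are read away from each other. A summit is the single base at which a called peak is strongest. Each was taken from the list that the authors cut by irreproducible discovery rate, called the reproducible list here, if it lay within 1000 bp of the annotated start of a minus-strand gene and, to the right of that start, the start of a plus-strand gene. The members are 18.4% of the 7152 summits of the list (exact 95% interval 17.5 to 19.3). They are 28.5% (27.2 to 29.8) of the 4626 promoter summits, meaning those within 1000 bp of any protein-coding start. The other 3309 promoter summits, used for comparison, comprise 3141 near the starts of 1 gene, 143 near several genes of the same strand and 25 near genes whose starts face each other.

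All values come from chromatin immunoprecipitation and sequencing (ChIP-seq) of whole adult Drosophila melanogaster. The flies, of strain cic-GFP, are a transgenic line in which GFP is joined to the C-terminal end of the cic gene product. Males and females were pooled, their age is not known, and an antibody against GFP was used on chromatin sonicated to 200 to 800 bp. There is 1 group of 2 libraries, replicates 1 and 3, and no other genotype, treatment or time, so no condition was compared. The labels call them biological replicates and give no rearing details, so their spread may be technical. Because whole animals were used, a summit cannot be placed in a tissue, and binding in few cells cannot be told apart from weak binding in many.

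Divergent promoters are common in the compact fly genome, where a single nucleosome-depleted stretch can serve both genes. Capicua is a DNA-binding repressor with an HMG box that recognises the octamers TGAATGAA and TGAATGGA, and receptor tyrosine kinase signalling through ERK relieves its repression. Housekeeping promoters of the fly often carry the DNA replication-related element (DRE), TATCGATA, bound by Dref, or Motif 1, bound by M1BP, whose core was searched here as GGTCACAC. Promoters of regulated genes more often carry GAGA repeats, bound by the GAGA factor Trl.

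The DNA between divergent starts is printed to show the kinds of motif that the results count. Of the stretches of at most 300 bp that overlap no annotated exon, 6 are printed here on the dm6 build, in lower case, with a DRE, a Motif 1 core or a Capicua octamer in capitals on whichever strand it reads. They were picked after their values were seen, to show each motif and its absence. In windows reaching 100 bp to each side of all 19253 annotated starts searched, on both strands, a DRE is present in 6.45%, a Motif 1 core in 5.68% and either octamer in 2.25%. The D19B/CG43293 stretch carries the strongest summit found between starts and holds none of these letters. Slh/oaf carries a Motif 1 core, RpL34a/Trmt61 a pair of DREs, SmB/KdelR a pair of overlapping DREs, and alphaCOP/CG13919 an octamer. The slmb/CG5793 stretch, whose summit lies outside it on the plus-strand gene's side, carries both a DRE and a Motif 1 core. The Slh/oaf core and both slmb/CG5793 motifs lie more than 100 bp from these summits, so they fall outside the windows counted around summits below.
D19B/CG43293, chr3L:6184921-6185188, plus strand: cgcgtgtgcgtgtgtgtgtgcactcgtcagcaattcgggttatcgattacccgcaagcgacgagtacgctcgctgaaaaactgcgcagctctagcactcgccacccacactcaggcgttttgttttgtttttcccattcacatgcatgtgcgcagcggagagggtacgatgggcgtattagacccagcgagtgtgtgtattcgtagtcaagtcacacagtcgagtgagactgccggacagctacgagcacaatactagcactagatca
Slh/oaf, chr2L:2492672-2492954, plus strand: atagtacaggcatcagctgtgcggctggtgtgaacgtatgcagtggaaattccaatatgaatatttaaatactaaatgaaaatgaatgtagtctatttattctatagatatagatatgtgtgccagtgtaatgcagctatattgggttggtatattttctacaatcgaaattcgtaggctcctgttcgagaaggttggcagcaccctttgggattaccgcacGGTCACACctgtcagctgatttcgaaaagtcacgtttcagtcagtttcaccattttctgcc
slmb/CG5793, chr3R:21127486-21127572, plus strand: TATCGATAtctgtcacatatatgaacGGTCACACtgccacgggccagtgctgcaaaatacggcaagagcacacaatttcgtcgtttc
RpL34a/Trmt61, chr3R:26059268-26059495, plus strand: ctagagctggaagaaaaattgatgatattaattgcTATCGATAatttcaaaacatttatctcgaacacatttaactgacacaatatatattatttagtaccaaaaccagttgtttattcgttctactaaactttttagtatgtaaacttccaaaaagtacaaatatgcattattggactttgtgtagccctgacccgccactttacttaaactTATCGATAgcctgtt
SmB/KdelR, chr2L:10426628-10426886, plus strand: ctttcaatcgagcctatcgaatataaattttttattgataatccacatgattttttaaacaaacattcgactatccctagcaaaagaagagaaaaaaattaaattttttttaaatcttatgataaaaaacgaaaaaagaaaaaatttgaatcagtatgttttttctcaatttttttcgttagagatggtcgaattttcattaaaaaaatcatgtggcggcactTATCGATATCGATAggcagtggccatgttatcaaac
alphaCOP/CG13919, chr3L:1645200-1645466, plus strand: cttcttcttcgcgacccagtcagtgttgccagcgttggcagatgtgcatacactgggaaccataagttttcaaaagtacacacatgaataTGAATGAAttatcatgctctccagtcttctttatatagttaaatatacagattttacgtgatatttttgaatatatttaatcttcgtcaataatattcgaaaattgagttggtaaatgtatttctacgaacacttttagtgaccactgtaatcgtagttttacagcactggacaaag
The pooled peak score of these 6 summits, which is the authors' peak strength without a unit, fell in the order D19B/CG43293 (818), Slh/oaf (552), alphaCOP/CG13919 (257), slmb/CG5793 (215), RpL34a/Trmt61 (195) and SmB/KdelR (141). The RpL34a/Trmt61 summit, beside a large-subunit ribosomal protein gene, scored 77.8 in replicate 1 and 123 in replicate 3. The SmB/KdelR summit, beside a gene for a core splicing protein and one for the receptor that returns proteins to the endoplasmic reticulum, scored 95.5 in replicate 1 and 45.1 in replicate 3. Which replicate was higher differed between these 2 DRE-bearing promoters.

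Matches to the Capicua octamers were few, so the printed examples are short. Only 32 of the 1317 members carried an octamer in the searched window of 100 bp to each side, and 4 from the 10 strongest of these are shown as 30 bases, with the octamer in capitals and each window read on the octamer's own strand.
CG14440/CG14441, chrX:6699455-6699484, plus strand: tggtagttgagTGAATGAAtggtggaatga
Syx1A/CG10694, chr3R:24106347-24106376, plus strand: gagaattttcaTGAATGAAtcgcgaccggc
GstO1/foi, chr3L:8525551-8525580, minus strand: tgcggtgggcgTGAATGAAagaggccgtag
S/ast, chr2L:1077150-1077179, minus strand: tcaccgtgtcgTGAATGAAtttttgtcagt
The CG14440/CG14441 summit scored 339 in replicate 1 and 396 in replicate 3, the highest pooled score (732) of any member with an octamer. The Syx1A/CG10694 summit, near the gene for the plasma-membrane syntaxin of synaptic vesicle fusion, scored 234 and 274. The GstO1/foi summit, near genes for an omega-class glutathione transferase and a zinc transporter, scored 165 and 183. The S/ast summit, on the side of Star, which the EGF receptor pathway needs to move its ligand out of the endoplasmic reticulum, and 658 bp from the nearest start, scored 167 and 125. In 3 of these 4 promoters the score was higher in replicate 3, and in S/ast it was higher in replicate 1.

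The strongest members lay mostly to the side of one of the genes, and not between the starts of the pair used. That pair is the divergent starts nearest to each other. CG9008/p38b led with a pooled score of 1255 and replicate scores of 700 in replicate 1 and 569 in replicate 3. Its summit lay on the CG9008 side, 78 bp from that gene's start. It was 602 bp from the start of p38b, a p38 stress-activated kinase gene. O-fut2/CG14777, on the CG14777 side and 960 bp from the start of a protein O-fucosyltransferase gene, scored 568 and 594 (pooled 1151). CG14965/Hsp83, at the gene for the Hsp90 chaperone, scored 430 and 698 (pooled 1122). Replicate 1 therefore ranked CG9008/p38b above CG14965/Hsp83 and replicate 3 ranked them the other way round. CG10731/lbk scored 588 and 535, UGP/Svip, with the gene for the enzyme that makes UDP-glucose, 459 and 591, and wap/Usp2, with a ubiquitin protease gene, 507 and 518. Their pooled scores were 1113, 1028 and 1021, and all other members were below 1000 in the pooled list.

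The 25 strongest members reached down to a pooled score of 615 and included genes of chromatin, translation and signalling. The mor/Hel89B summit scored 397 in replicate 1 and 403 in replicate 3. It lay on the Hel89B side, 359 bp from that gene's start. It was 744 bp from the start of mor, which encodes a core subunit of the Brahma chromatin-remodelling complex. The Chro/Ssl1 summit, near the genes for the chromodomain protein Chromator and a subunit of the general transcription factor TFIIH, scored 252 and 408. The promoters of translation genes were eIF4EHP/CG18428, a cap-binding repressor gene at 330 and 452, and Ugalt/eIF2Bbeta, with a guanine-exchange factor subunit gene at 274 and 502. Both were higher in replicate 3. The Nop17l/sax summit scored 308 and 350. It lay on the Nop17l side of these starts, 739 bp from that of sax, a type I BMP receptor gene. The Rel/Mst85C summit, at the gene for the NF-kB factor Relish, scored 302 and 356. The Paip1/Dark summit, with the fly Apaf-1 gene, scored 382 and 354, and the Eno/Rrp40 summit, with the enolase gene of glycolysis and an exosome subunit gene, 290 and 357.

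The remaining pairs of the 25 hold genes of varied or little-known function. CG7879/Tmep, CG14995/Fit1, D19B/CG43293, Nemp/r and SLC5A11/CG8419 had pooled scores of 855, 837, 818, 816 and 805. Fit1 encodes a kindlin, which activates integrins, and r encodes the enzyme that begins pyrimidine synthesis. CG14440/CG14441, Gk1/CG13876, CG4951/Nep7, Ndfip/CG7484, CG11309/CG7632 and CG32486/PAN3 had pooled scores of 732, 714, 682, 632, 615 and 615. Gk1 is a glycerol kinase gene, Nep7 a neprilysin-family peptidase gene, and PAN3 a deadenylase subunit gene. Of the 25 summits, 6 lay between the starts, 11 on the minus-strand gene's side and 8 on the plus-strand gene's side. An octamer was present at 1 of them, GAGA repeats at 2, and a DRE or a Motif 1 core at 0. Replicate 1 gave the higher score at 7 of the 25, and the replicates differed by over 1.5-fold at 4 of the 25.

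**Figure D1:**
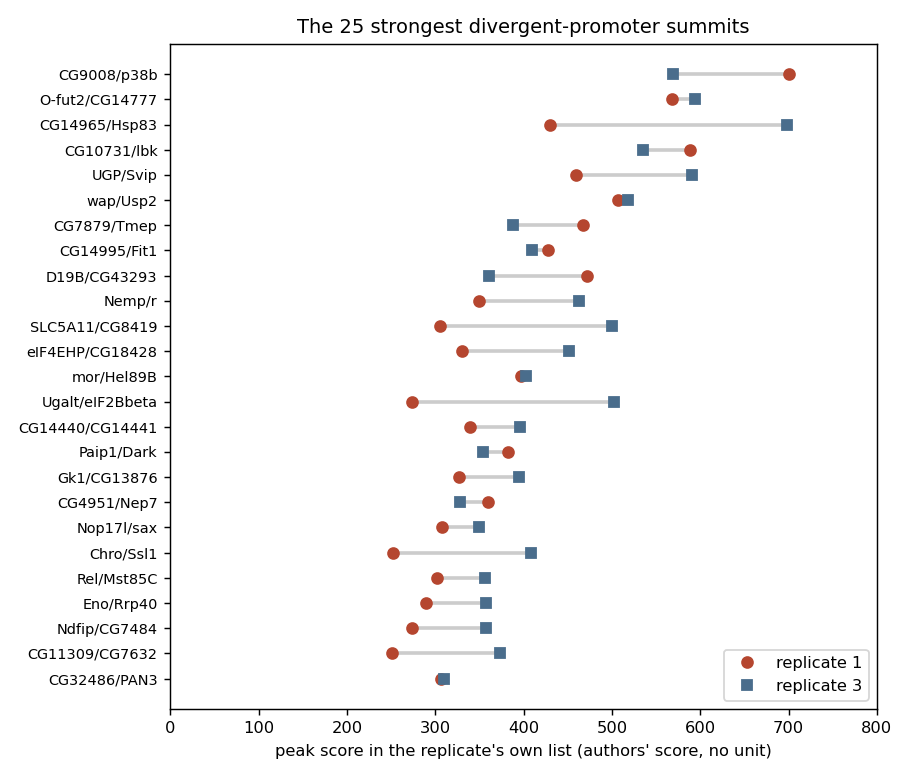
Peak score of the 25 strongest divergent-promoter summits in each replicate's own list (x axis, the authors' score, no unit; circles, replicate 1; squares, replicate 3; the line joins both values). CG9008/p38b reached 700 in replicate 1, CG14965/Hsp83 was at 430 and 698, and 7 of the 25 were higher in replicate 1.

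Across all members, scores were somewhat lower than at other promoter summits. The median pooled score was 168 in members (quartiles 138 and 233, 90th percentile 352) and 182 in the other promoter summits (142 and 267, 90th percentile 419). In replicate 1 the medians were 92.0 and 102, and in replicate 3 they were 97.8 and 108. The ratio of medians, members to others, was thus 0.927 in the pooled list, 0.901 in replicate 1 and 0.909 in replicate 3. Each replicate gave the same direction, and the distributions overlapped broadly, though scores reached 1255 in members and 2758 in the others. Whether the difference is larger than sampling of peaks was not tested, since peaks are not replicates. Summits of both kinds had a median interval of 480 bp, but the members' median GC content within 100 bp was 41.3% against 44.3%.

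The share of divergent promoters rose from the top of the list downward. Members were 6 of the 49 promoter summits among the 100 strongest peaks (12.2%, exact 95% interval 4.63 to 24.8), 31 of 168 among the 300 strongest (18.5%) and 134 of 621 among the 1000 strongest (21.6%). When promoter summits were cut by score into 5 equal groups, members made up 22.1% of the strongest group, then 26.8%, 29.5% and 32.5%, and 31.4% of the weakest. The longer pooled relaxed list, which continues below the reproducible threshold to 30000 entries, showed a fall after that rise. Divergent promoters were 30.1% of promoter summits at ranks 7153 to 10000, 29.6% at 10001 to 15000, 22.5% at 15001 to 20000 and 17.4% at 25001 to 30000. Their share was therefore greatest among peaks of middle strength. Over the same ranks the share of summits that lay at any promoter also fell, from 65.5% at ranks 4001 to 7152 to 32.2% at the end.

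**Figure D2:**
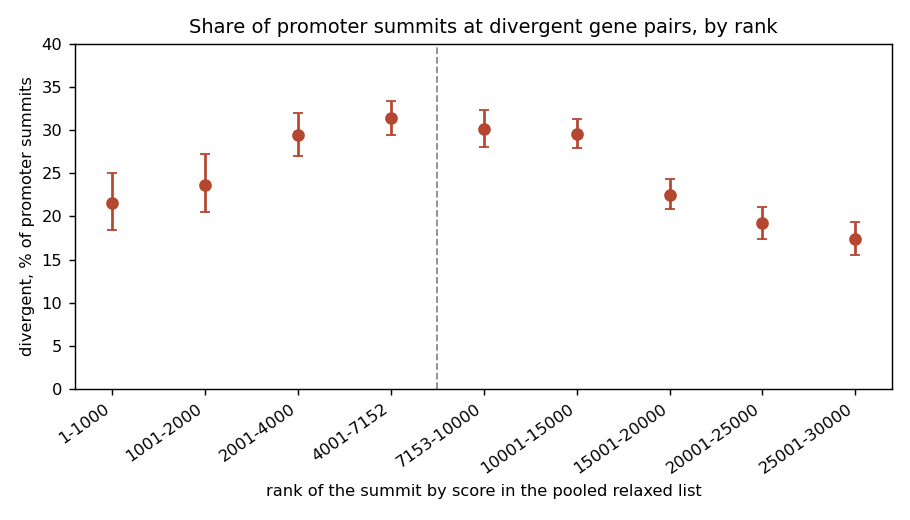
Divergent promoters as a percentage of promoter summits (y axis) by rank of score in the pooled relaxed list (x axis), with exact 95% intervals; the dashed line marks the end of the reproducible list. The share was 21.6% in the first 1000 ranks, 31.4% at ranks 4001 to 7152 and 17.4% in the last bin.

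The replicates placed the members alike in direction but with moderate scatter. Of 1311 members matched in both replicates, 586 scored higher in replicate 1 (44.7%), against 1484 of 3293 other promoter summits (45.1%). A difference of more than 1.5-fold between the replicates was seen in 307 members (23.4%) and in 768 of the others (23.3%). The rank correlation of the replicate scores, as a description over summits that share libraries and neighbours, was 0.642 over 1311 members and 0.742 over 3293 others. The members' narrower range of scores goes with that lower value, and its part was not tested. A summit takes the strongest overlapping replicate peak, so neighbouring summits can share a replicate score. Such sharing matters for spi/msb1l, at the gene for the EGF receptor ligand Spitz, whose pooled score of 333 stands beside replicate scores of 715 and 705 that also overlap a stronger neighbouring summit.

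The members belong to 1063 gene pairs, counting for each summit the divergent starts nearest to each other, and to 2112 genes, or 2204 when every qualifying pair is counted. A single summit was found at 826 pairs, 2 summits at 221, 3 at 15 and 4 at 1. The pair with 4 was Pgk/Bacc, with the phosphoglycerate kinase gene of glycolysis, where pooled scores ran from 309 down to 125. Pairs with 3 summits included CG14995/Fit1 (837 to 155), Ndfip/CG7484 (632 to 133), imd/Dp1 (442 to 274), with the gene for the adaptor of the IMD immune pathway, and ERR/Atg18a (440 to 123), with the oestrogen-related receptor gene. Several starts of 1 gene can qualify, so these summits need not surround the same pair of starts. Most members (1221) met the rule through exactly 1 pair of genes and 96 through more. The extreme was a summit of score 211 at the mod(mdg4) locus, with 21 qualifying pairs of 10 annotated genes. Many of these are the separately annotated trans-splicing units of that insulator-protein gene, named pre-mod(mdg4) followed by a letter.

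Members were centred on the space between the starts. The median distance between the starts was 289 bp (quartiles 143 and 452, range 1 to 1886). Starts were at most 250 bp apart in 40.9% of members, at most 500 bp in 78.7% and at most 1000 bp in 97.7%. The summit lay between the starts in 627 members (47.6%, 44.9 to 50.3), on the minus-strand gene's side in 314 (23.8%) and on the plus-strand gene's side in 376 (28.5%). Median scores at these positions were 166, 175 and 168. The summit was within 100 bp of the midpoint in 36.8%, within 250 bp in 61.2% and within 500 bp in 84.2%. The fullest 50 bp bins were the 2 next to the midpoint, with 144 and 153 summits. The rule itself limits how far from the midpoint a summit can lie. Position was taken from the divergent starts nearest to each other. A summit called outside can thus lie between other annotated starts of the same genes.

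**Figure D3:**
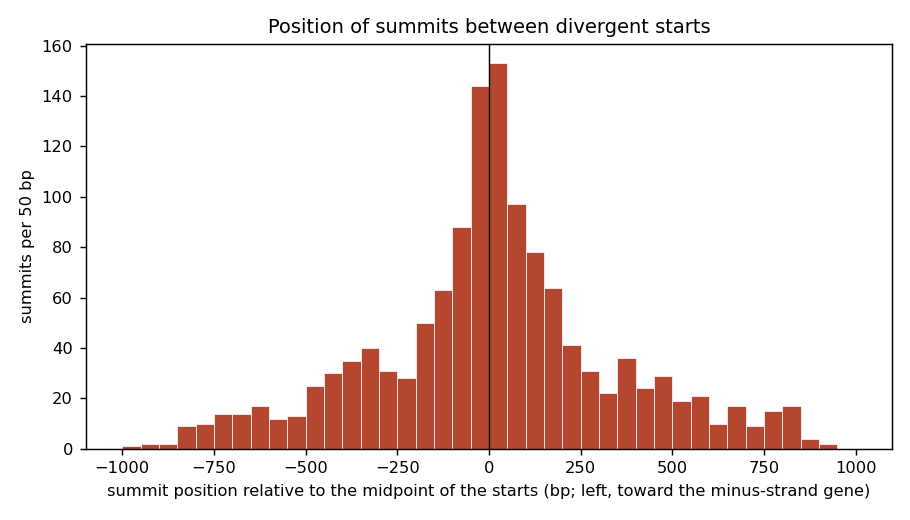
Number of summits per 50 bp (y axis) by distance of the summit from the midpoint of the divergent starts (x axis, bp; negative values toward the minus-strand gene). The bins beside the midpoint held 144 and 153 of the 1317 summits, and 84.2% lay within 500 bp.

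Position relative to the pair of starts used changed with strength at the very top. Of the 25 strongest members 24.0% had their summit between the starts (exact 95% interval 9.36 to 45.1), against 46.7% of ranks 26 to 100, 43.5% of ranks 101 to 300, 48.0% of ranks 301 to 600, 51.7% of ranks 601 to 900 and 48.0% of the rest. Summits within 100 bp of a start made up 36.0% of the 25 strongest and 61.6% of the last band. These bands were chosen after the data were seen, and the first holds few summits. Alternative starts also bear on the first band. At UGP/Svip the nearest annotated start was 156 bp away, while those of the pair used were 896 and 960 bp away. Over all members the nearest annotated start was a median of 77.0 bp away, against 163 bp at other promoter summits. A summit near 2 genes has more starts to be near to, so part of that gap follows from the rule. Pairs with the closest starts were Atg6/Pisd at 1 bp, CG11710/mal and dpa/didum at 2 bp, SerRS/CG17260 at 8 bp and CG1360/scra at 10 bp. Their pooled scores were 206, 159, 219, 223 and 123, on both sides of the members' median. Atg6 encodes the fly Beclin of autophagy, dpa the helicase subunit Mcm4, SerRS a seryl-tRNA synthetase and scra the septin-binding protein anillin.

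Seen from the annotation, a summit within 1000 bp of both starts was present at 1172 of 3499 divergent pairs with starts at most 2000 bp apart, or 33.5% (31.9 to 35.1). The share was 46.4% (43.3 to 49.5) with starts up to 250 bp apart, 45.4% above that and up to 500 bp, 32.9% up to 1000 bp and 4.21% up to 2000 bp. The stretch within 1000 bp of both starts narrows as the starts move apart, so a fall with spacing is built in. Neighbouring same-strand pairs with starts at most 2000 bp apart had a shared summit in 232 of 2413, or 9.61%. Their starts were farther apart, at a median of 1289 bp against 408 bp for divergent pairs. Over the same 4 bins their shares were 37.4%, 23.3% (7 of 30 pairs), 17.4% and 0.992%. Most same-strand pairs in the first bin are annotated at an identical start (median spacing 0 bp), so they are not matched to divergent pairs in kind. Annotated starts per gene also mattered: with 1 start per gene, 33.4% of divergent pairs up to 250 bp apart had a summit, and with more starts 56.4%. For same-strand pairs up to 250 bp apart the shares were 30.6% and 41.2%.

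**Figure D4:**
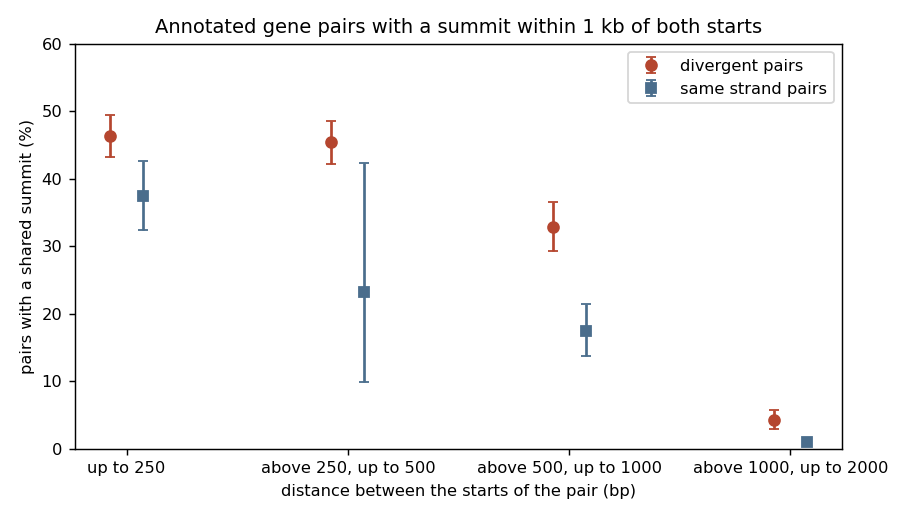
Percentage of annotated neighbouring gene pairs with a summit within 1000 bp of both starts (y axis, exact 95% intervals) by distance between the starts (x axis, bp; circles, divergent pairs; squares, same-strand pairs). Divergent pairs were at 46.4%, 45.4%, 32.9% and 4.21%, and same-strand pairs at 37.4%, 23.3%, 17.4% and 0.992%.

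Counted per gene, a promoter summit of any kind was found at 30.5% of the 13945 protein-coding genes and a divergent-promoter summit at 15.8%. Genes with a divergent partner had a promoter summit in 42.7% (41.4 to 43.9, 2644 of 6198) and genes without one in 20.8% (19.9 to 21.7, 1613 of 7747). A summit at a partner's start can lie within 1000 bp of both genes and count for each. Part of that gap therefore follows from the way of counting. Among genes with a single annotated start the shares were 35.4% and 15%, and among those with more starts 58.7% and 40.5%. The median strongest score ran the other way, at 183 for bound genes with a partner and 191 for those without. Many divergent pairs were also present in the longer lists of the single libraries: 70.0% in the relaxed list of replicate 1, 68.5% in that of replicate 3 and 65.0% in both. A share of 26% had no summit in any list used. Other gene pairs and genes were not counted in these longer lists, so the shares cannot be called particular to divergent pairs.

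Members held the DRE, the Motif 1 core and TATAAA more often than other promoter summits, and GAGA repeats, GATA sites and the Capicua octamers less often. Within 100 bp of the summit, on both strands, the DRE was present in 96 members (7.29%, 5.94 to 8.83) and in 85 other promoter summits (2.57%, 2.06 to 3.17). The Motif 1 core was also present in 96 members (7.29%, 5.94 to 8.83) against 98 others (2.96%, 2.41 to 3.60). Either octamer was present in 32 members (2.43%, 1.67 to 3.41) and 189 others (5.71%, 4.95 to 6.56), and GAGAGAG in 5.24% and 11.1%. TGATAAG, the site of GATA factors, was present in 6.61% and 10.5%, the E-box CACGTG in 4.33% and 3.48%, and TATAAA in 28.1% and 20.1%. Windows of the same width around all annotated starts held TATAAA in 26.9%, GAGAGAG in 4.69%, CACGTG in 2.80% and TGATAAG in 4.06%. For the DRE (6.45%), Motif 1 (5.68%), GAGA and TATAAA, members as a whole were within 2 percentage points of annotated starts. The octamer was at 2.43% in members and 2.25% at annotated starts. These windows are not alike in position, since member windows are centred on summits up to 1000 bp from a start. Members within 100 bp of a start were above all annotated starts for the DRE (11.2%, 9.11 to 13.6) and Motif 1 (11%, 8.88 to 13.3). For TATAAA they were at 29.1% (26.0 to 32.4), for the octamer at 1.74% (0.956 to 2.91) and for GAGA at 3.99% (2.74 to 5.58). These last intervals take in the shares at annotated starts.

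**Figure D5:**
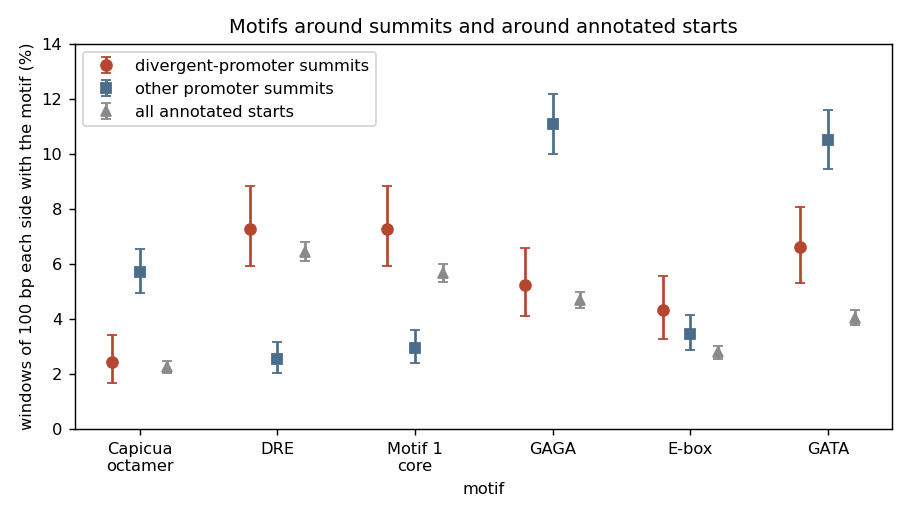
Percentage of windows of 100 bp to each side that hold each motif (y axis, exact 95% intervals) around divergent-promoter summits (circles), other promoter summits (squares) and all annotated starts (triangles). The octamer was at 2.43%, 5.71% and 2.25%, and the DRE at 7.29%, 2.57% and 6.45%.

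Distance to a start moves with these shares. Among summits within 100 bp of a start the DRE was present in 11.2% of 803 members and 5.74% of 1237 others, the Motif 1 core in 11% and 7.03%, GAGAGAG in 3.99% and 9.86%, and an octamer in 1.74% and 4.85%. Median GC content there was 40.8% and 45.3%, and median scores were 165 and 175. Above 100 and up to 200 bp from a start the DRE was present in 5 of 279 members and 9 of 598 others. Among summits more than 200 bp from a start the DRE fell to 1 of 235 members (0.426%) and 5 of 1474 others (0.339%). GAGAGAG was close there, at 11.5% and 12.3%. An octamer was present in 3.40% and 6.51% there, and TATAAA in 17% and 20.8%, the reverse of its order over all summits. The octamer and GAGA shares were thus lower in members near to and far from a start, but only slightly so for GAGA far from a start. The DRE share was higher in members within 100 bp of a start. Farther away too few summits carried a DRE to compare. The part that GC content plays was not tested.

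In the strongest of the 5 score groups of promoter summits an octamer was present in 7 of 205 members (3.41%) and 81 of 721 others (11.2%), then in 4.84% and 5.47%, 2.56% and 4.14%, 0.332% and 3.53%, and in the weakest in 1.72% and 3.46%. The octamer share was lower in members in each group, but the gap was small in the second and neither it nor the members' share fell steadily. The DRE was present in 10 of 205 members (4.88%) in the strongest group and 29 of 290 in the weakest, and in 0.971% and 4.25% of the others. The median score of members with a DRE was 156 and of members with an octamer 221. The strongest members with a DRE, singled out after their values were seen, were hts/CalpA (531), CG15386/mio (519) and Mpc1/CG42613 (508), of which the last also has a Motif 1 core. Replicate 1 and replicate 3 scores were 285 and 259 at hts/CalpA, with the genes for the actin-capping adducin and a calpain, and 257 and 245 at Mpc1/CG42613, with a gene for a mitochondrial pyruvate carrier subunit. Both were higher in replicate 1. An octamer and a DRE were present together in 1 member, and an octamer and a Motif 1 core in 2.

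The DRE and the Motif 1 core were more frequent at summits between the starts than outside them, GAGA repeats were more frequent outside, and the octamers were split evenly. Between the starts the DRE was present in 10.8% of 627 summits (8.52 to 13.5) and the Motif 1 core in 9.57%, against 4.06% and 5.22% of the 690 summits outside. GAGAGAG was present in 2.55% between the starts and 7.68% outside, and an octamer in 2.55% and 2.32% (16 summits each). At like spacing the motifs were about as frequent at divergent pairs without a summit. Within 150 bp of the midpoint of pairs with starts at most 500 bp apart, the DRE was present at 16.4% of 916 pairs with a summit (14.0 to 18.9) and 17.1% of 1079 pairs without (14.9 to 19.4). The corresponding shares were 12.1% and 13.2% for the Motif 1 core and 2.73% and 3.52% for an octamer. Median spacing (244 and 246 bp) and median GC content (35.9% and 35.2%) were close between these sets. Over all spacings the DRE was at 13.7% and 8.81%, with median spacings of 290 and 560 bp.

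Other members among the 10 strongest with an octamer were Pdrg1/Pal1 (pooled score 581), imd/Dp1 (311), CG3609/CG15390 (307), Reps/l(2)gd1 (273) and CG7810/CG7806 (260). Pal1 encodes an enzyme that finishes the amidation of neuropeptides, and its summit scored 243 in replicate 1 and 349 in replicate 3. The imd/Dp1 octamer summit scored 156 in both replicates. Reps encodes an endocytic adaptor and l(2)gd1 a regulator of Notch trafficking, and their summit scored 136 and 142. Of all 32 octamer-bearing members, TGAATGAA was present in 23 and TGAATGGA in 9, and 16 summits lay between the starts.

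Ribosomal protein and aminoacyl-tRNA synthetase genes had divergent-promoter summits in larger shares than all genes. A member summit was present at 39 of 81 cytoplasmic ribosomal protein genes (48.1%, exact 95% interval 36.9 to 59.5), 28 of 73 mitochondrial ribosomal protein genes (38.4%, 27.2 to 50.5) and 12 of 32 aminoacyl-tRNA synthetase genes (37.5%, 21.1 to 56.3), against the 15.8% of all protein-coding genes. Having a divergent partner is itself more common in these lists, at 65.4%, 80.8% and 75% against 44.4% of all genes. The strongest ribosomal summits were at the pairs RpS12 with Adk2 (488; 312 in replicate 1 and 265 in replicate 3), RpS27 with Nup37 (471; 175 and 298) and RpL7 with Ripalpha (466; 222 and 244). No replicate was the higher one at all 3. A summit counted for a list gene need only lie within 1000 bp of its start, so it can lie nearer to the partner. The RpS12 summit lay on the Adk2 side, 919 bp from the RpS12 start and 255 bp from that of Adk2. Among mitochondrial ribosomal protein genes mRpL2 with FoxK (465), mRpS23 with CenG1A (431) and mRpL23 with CG9004 (423) led, and among synthetase genes AspRS with Lfg (452), SerRS with CG17260 (223) and ArgRS-m with CG17816 (169). Translation factors had a member at 12 of 51 genes (23.5%, 12.8 to 37.5, an interval that takes in 15.8%) and a divergent partner at 64.7%. They were led by eIF4EHP (783), eIF2Bbeta (778) and eIF3h (381). The AspRS summit was 526 bp from the AspRS start of its pair. The eIF2Bbeta summit was 699 bp from the eIF2Bbeta start and 20 bp from that of Ugalt.

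Transcription, chromatin and autophagy genes followed. A member was present at 18 of 40 Mediator and TFIID genes (45%, 29.3 to 61.5), led by MED15 (498), MED6 (369) and MED7 (311), which encode subunits of the coactivator that links activators to RNA polymerase II. This list held the only pair with both genes on 1 list, Taf10b/Taf10, a pair of related TFIID subunit genes whose starts are 45 bp apart, with scores of 118 in replicate 1 and 82.9 in replicate 3. The annotation holds 9 such same-list pairs, of which 8 had no summit. Chromatin and insulator genes had a member at 14 of 36 (38.9%), led by mor (781), Chro (656) and brm (468), the last being the ATPase of the complex to which mor belongs. Autophagy genes had one at 9 of 20 (45%), led by Atg18a (440), Atg4b (265) and Atg2 (247). Splicing genes had one at 7 of 29 (24.1%, 10.3 to 43.5), led by SmD3 (385), Sf3a1 (363) and Prp3 (173), and replication genes at 5 of 22 (22.7%, 7.82 to 45.4), led by Mcm10 (165), PolD2 (164) and PolD1 (131). Both intervals take in 15.8%, and divergent partners were at 96.6% and 86.4% of these genes, against 44.4% of all genes. Partner shares were 77.5% for Mediator and TFIID, 69.4% for chromatin and insulator genes and 80% for autophagy. Several leading summits lay far from the listed gene's start in the pair. The distances were 797 bp at MED15, 635 bp at MED6, 642 bp at MED7, 744 bp at mor, 879 bp at Atg18a and 944 bp at Mcm10. The MED15 summit was 16 bp from the start of CG4297. Others were nearer, such as Chro at 69 bp and SmD3 at 103 bp.

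Other housekeeping lists lay nearer to the background of 15.8%. The vacuolar proton pump had a member at 7 of 33 genes (21.2%), led by Vha55 (387), Vha100-2 (385) and Vha26 (223). Mitochondrial import had one at 3 of 15 (4.33% to 48.1%; Tom7 269, Tim10 164 and Tim9a 146) and the proteasome at 9 of 48 (18.8%), led by Rpn8 (388), Rpn13 (313) and Rpn5 (175). The respiratory chain had one at 15 of 87 (17.2%), led by ND-51 (287) and ND-ASHI (263) of complex I and SdhC (234) of complex II. The intervals of these 4 lists, like those of the translation factor, splicing and replication lists, take in 15.8%. Chemosensory receptor genes had one at 6 of 179 (3.35%, 1.24 to 7.15), led by Gr64a (301), a sugar receptor gene, Or49b (169) and Gr63a (156), a carbon dioxide receptor gene. Cuticle protein genes had one at 0 of 70, which allows up to 5.13%. Divergent partners were at 20.7% of chemosensory receptor genes and 22.9% of cuticle protein genes.

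Signalling genes had a divergent-promoter summit about as often as the 15.8% of all genes, while promoter summits of any kind were at 47.5% of the receptor tyrosine kinase list and 77.3% of the insulin and TOR list, against 30.5%. Of 40 receptor tyrosine kinase signalling genes 19 had a promoter summit and 7 a divergent one (17.5%, 7.34 to 32.8). The strongest were at Krn (632), which encodes the EGF receptor ligand Keren, cnk (444), a scaffold of the Ras to Raf step, and Shc (392), an adaptor of activated receptors. Krn scored 274 in replicate 1 and 357 in replicate 3, cnk 277 and 187, and Shc 164 and 240. The cnk summit lay on the l(2)k01209 side, 456 bp from the start of cnk and 56 bp from that of l(2)k01209. The Krn summit is the one given above under Ndfip/CG7484, since those starts lie nearest to each other there, 337 bp apart. No annotated start of a protein-coding gene was nearer to it than 648 bp. Of 22 insulin and TOR signalling genes 17 had a promoter summit and 4 a divergent one (18.2%), led by mio (519), S6k (294) and Tsc1 (129). Replicate 1 and replicate 3 scores were 283 and 234 at mio, which encodes a GATOR subunit, and 188 and 113 at S6k, the ribosomal protein S6 kinase gene. Of 13 circadian clock genes 9 had a promoter summit and 0 a divergent one, and 2 have a divergent partner.

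By chromosome arm, members were 29.0% of promoter summits on 2L, 28.0% on 2R, 29.4% on 3L, 29.9% on 3R, 24.1% on X (133 of 553, 20.5 to 27.8) and 16.7% on chromosome 4 (3 of 18, 3.58 to 41.4). The median member score was 147 on X and between 169 and 174 on the 4 large autosomal arms. The 1000 bp limit cuts through a continuous range. The farther start was in the last 100 bp before the limit in 103 members, and 91 further summits would qualify with a limit of 1100 bp. Just inside were Keap1/kuk at 999 bp (188) and CG18622/MESK4 (540), PXo/CG32407 (126) and Qsox1/CG4676 (143) at 1000 bp. Just outside were PMCA/Hcf (165) by 1 bp, DnaJ-1/Usp47 at 1002 bp (308), and CG30289/Egfr (128) and CG9663/CG3277 (519) at 1003 bp. Scores on either side of the limit were alike in range.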

How the data were processed

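Per the accompanying text list, the authors deposited relaxed peak lists for replicates 1 and 3 and for both pooled, and the reproducible list, made with a control alignment on dm6. Not given in the sources used here are the aligner, the caller and its settings. Depth is unknown, as no file used has read counts. The deposited score has no stated unit or depth scaling and served to order summits. The −log10 q-values that the authors deposited were not needed. No other columns of per-sample values were present (0).

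Summits were compared with starts of 13945 protein-coding genes (Ensembl release 115, 6 arms); sequence came from RefSeq Release 6, which is dm6. A summit took the strongest replicate peak overlapping it by 1 bp or more. No difference was tested: with 1 group, values are counts, medians and exact Clopper-Pearson 95% intervals, which cover counting error only and treat neighbouring peaks as independent. The classing was checked on simulated summits (1000 of 1000 correct). Named pairs are the 25 strongest members, pairs within 1 list, up to 3 genes per list, the 10 strongest with an octamer, the 5 closest and 5 with most summits, and those at the limit; exceptions are stated, and 1 such pair is not reported here. The members and lists were chosen with earlier results of these data known. Alternatives covered distance, starts, repeated regions, threshold, window, overlap and replicates. Tools were scipy 1.17.1, pandas 2.3.3, numpy 2.4.6 and matplotlib 3.10.9 under Python 3.11.15.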

Additional observations from a re-analysis of the deposited data

How the results depend on the processing

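With 500 bp in place of 1000 bp there were 852 members (22.1% of promoter summits, ratio of median scores 0.901, 23.4% of annotated pairs, DRE in 9.51%), and with 2000 bp 1989 (36.5%, pairs 47.0%, octamer in 3.72%, DRE in 5.48%). With only the outermost start of each gene, members were 32.2% of promoter summits and 2.06% had an octamer. In the stronger 50% of the list there were 579 members (25.5%, pairs 16.7%, octamer 4.32%, DRE 5.53%). With starts at most 1000 bp apart, 42.6% of pairs had a summit. With 50 bp around the summit the octamer share was 0.835% and the DRE share 4.48%. Matches to both replicates were 99.5%, and 98.7% with an overlap of at least 50% of the shorter interval. The reproducible list was itself made from both replicates, so a high match is built in. Leaving out each replicate gave 1261 to 1371 members, 27.8% to 29.2% of promoter summits, ratios of 0.915 to 0.952, 32.3% to 35% of pairs, an octamer in 2.48% to 2.93% and a DRE in 6.19% to 8.02%. The median score of members was the lower one in every setting.

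Motif comparisons within distance and score classes were added after seeing the data. Members had the octamer and GAGA less often and the DRE more often than other promoter summits in all 16 settings, which share summits. The DRE gap rests on few summits away from a start. It was 0.287 percentage points above 100 and up to 200 bp, and 0.0863 at more than 200 bp. Motif 1 reversed at summits more than 200 bp from a start (-0.253 percentage points, members minus others), as did TATAAA (-3.81). GATA sites reversed above 100 and up to 200 bp (0.504) and in groups 1 (0.827) and 4 (0.441) of the 5 score groups, counted from the strongest. The cause was not tested. No paired analysis was possible because there is 1 group. Without counts, depth sets an unknown limit on weak peaks.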
